A study of Mus musculus with 9 samples.

Results

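The heavy chain variable (Ighv) genes encode the first exons of the antibody heavy chain, and their RNA was followed here in activated mouse B cells with and without the transcription factor YY1. They were taken as all rows of the 6 RNA count files whose Ensembl ID maps to a symbol starting with Ighv and whose counts sum to 10 or more. The rule gave 118 genes of the 185 Ighv gene IDs in the files, among 48795 gene IDs in all. The members nearest the threshold were Ighv12-3 and the pseudogene Ighv1-13 with 12 counts each, and the closest ID left out was Ighv3-4 with 9. The symbols Ighv1-13 and Ighv5-8 each stand for more than a single ID, the other Ighv1-13 ID having 0 counts.

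The RNA came from follicular B cells, the main resting B cells of the spleen, selected on CD23 from C57BL/6 mice of genotype yy1 f/f, which carry loxP sites around both Yy1 alleles. Mock cells (3 libraries) went through a treatment without recombinase. Tatcre cells (3 libraries) received TAT-CRE, a Cre recombinase that enters cells, which removes the floxed gene in culture. Both carried the floxed allele and both were grown with LPS and IL-4, for 72 hours in 10% serum by the series text and 48 hours in 20% serum by the sample text. The sample text lists TAT-CRE for every sample, so groups here follow the sample titles, and Cre exposure and Yy1 loss cannot be told apart. The series text describes 3 mice whose spleens were divided over the treatments, but the labels do not tie libraries to mice, so all p-values rest on the variation among libraries, which may be technical.

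Each developing B cell joins 1 Ighv gene to a diversity (D) and a joining (J) segment in the bone marrow, and from then on transcribes that rearranged gene from the promoter of the chosen V gene. V genes are sorted by sequence into families, of which Ighv1 (J558) is the largest in the mouse. Ighv2 and Ighv5 lie nearest the D segments, and Ighv1 and Ighv8 lie farther away and reach the far end of the locus. YY1 is known for its part in the contraction of this locus in pro-B cells, where its loss reduces joining of distal V genes. The mature cells studied here had joined their V genes before Yy1 was deleted.

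The libraries held 22729187 to 28230727 gene counts and 20420 to 23197 genes with a count, mock 3 having the fewest. Yy1 counted 2655, 3018 and 2542 in mock but 24, 36 and 50 in tatcre libraries, a 71.0-fold fall by edgeR (log2 fold change -6.15, adjusted p = 1.7e-08). The B cell markers Cd79a, Cd79b, Ms4a1, Fcer2a and Cd74 were all expressed, with a summed level of 5598 to 5980 CPM (counts scaled to library size) in mock and 4559 to 5221 CPM in tatcre libraries. Fcer2a, the gene of CD23, fell from 1152 ± 18.1 to 753 ± 28.2 CPM (log2 fold change -0.61, edgeR adjusted p = 8.1e-05). The other 4 were not called. Of 6 T cell markers 5 were too low to test, with a summed level of all 6 of 14.5 to 20.6 CPM in mock and 9.02 to 12.99 CPM in tatcre libraries, nearly all of it Lck. Of 6 macrophage and granulocyte markers S100a8 and S100a9 had 0 counts throughout. The summed level of all 6 was 0.468 to 1.25 CPM in mock and 1.16 to 2.30 CPM in tatcre libraries. NK and erythroid cell markers summed to at most 0.209 and 0.125 CPM in any library. Dendritic cell markers summed to 110 to 127 CPM in mock and 98.5 to 104 CPM in tatcre libraries, nearly all of it Flt3, which fell.

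Ighv RNA as a whole was a small part of the transcriptome and did not separate the groups. The 118 genes together took 19322, 16335 and 16526 counts of mock 1 to 3, and 18648, 14495 and 18006 of tatcre 1 to 3. As a share of all gene counts this was 0.0655% ± 0.00724 in mock and 0.0722% ± 0.00779 in tatcre cells (SD, n = 3 each), and on the library-scaled level 680 ± 65.8 and 697 ± 82.4 CPM. The groups overlapped on both scales. The library totals of Ighv and of heavy chain constant gene counts were both highest in mock 1 and lowest in tatcre 2. They did not keep the same order throughout: mock 2 had fewer Ighv but more constant gene counts than mock 3 (251226 and 242424). Ratios of Ighv to constant gene counts were tighter within each group than the totals. Per 100 counts of Ighm, the constant gene of IgM, there were 9.996, 10.11 and 10.09 Ighv counts in mock and 8.86, 8.70 and 8.59 in tatcre libraries, all mock values being higher. Per 100 counts of all 8 constant genes the order was the opposite, with 6.65, 6.50 and 6.82 in mock against 7.54, 7.51 and 7.30 in tatcre libraries. Of the 8 constant genes Ighg1, Ighg2b, Ighg2c, Ighg3 and Ighe fell and none rose, where 16.3% of all genes tested fell and 10.8% rose. Ighg1, the IgG1 constant gene, went from 2558 ± 167 to 875 ± 154 CPM. Ighm, at 6754 ± 684 CPM and then 7996 ± 908 CPM, was not called (edgeR adjusted p = 0.082), nor were Ighd and Igha. Plasma cells, which secrete antibody, carry much heavy chain RNA. Of 7 plasma cell markers Jchain, Irf4 and Mzb1 fell, Sdc1, Prdm1 and Xbp1 were not called and Tnfrsf17, with 0 to 0.0852 CPM, was not tested. Their summed level was 961 to 998 CPM in mock and 728 to 800 CPM in tatcre libraries, and their part in the Ighv totals and ratios was not tested. All values come from bulk RNA, where fewer cells using a V gene and less RNA per cell cannot be told apart.

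Usage was spread over many genes with no single dominant one. The 10 most used genes in mock cells were, in order, Ighv2-9, Ighv9-3, Ighv3-6, Ighv5-6, Ighv2-2, Ighv6-6, Ighv1-7, Ighv5-17, Ighv10-1 and Ighv6-3, each a functional V segment in the RefSeq annotation. They came from 7 families, and 8 genes were among the 10 most used of every library. Shares are of counts and not per length; 9 of these 10 were also among the 10 highest in counts per base of the annotated gene span, Ighv1-4 taking the place of Ighv10-1.

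Ighv2-9 (ENSMUSG00000096638, chromosome 12, 113879097 to 113879388 in GRCm38) held 5.93, 4.92 and 4.85% of Ighv counts in mock and 5.29, 4.74 and 4.95% in tatcre libraries. Ighv3-6 (ENSMUSG00000076672, chromosome 12, 114288152 to 114288447) held 4.21, 5.24 and 5.48% in mock and 4.76, 6.47 and 5.52% in tatcre libraries, and Ighv9-3 (ENSMUSG00000096459, chromosome 12, 114140692 to 114141122) held 4.74, 5.002 and 5.55% and 4.78, 3.51 and 4.48%. These 3 genes overlapped between the groups, and the most used gene changed with the library: Ighv2-9 in mock 1 and tatcre 1, Ighv3-6 in mock 2, tatcre 2 and tatcre 3, and Ighv9-3 in mock 3. Neighbours in this order often differed by less than the SD of their means, as for Ighv2-9 at 5.23 ± 0.604%, Ighv9-3 at 5.10 ± 0.412% and Ighv3-6 at 4.97 ± 0.675% in mock cells.

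Of the 10 most used genes 3 had shares that did not overlap between the groups, 2 lower and 1 higher in tatcre cells. Over all 15546 genes tested, counts divided by the summed Ighv counts of the library did not overlap for 19.7% in the lower and 13.8% in the higher direction, so 3 of 10 is near the background. Ighv2-2, a member of the Ighv2 family close to the D segments, held 4.76, 4.19 and 4.58% in mock and 5.02, 5.20 and 4.90% in tatcre libraries. Ighv5-6 held 4.56, 4.87 and 5.07% in mock and 4.40, 3.84 and 4.37% in tatcre libraries, and Ighv10-1 held 3.23, 3.09 and 3.32% in mock and 2.31, 3.02 and 2.40% in tatcre libraries. None of the 10 genes was called between the groups by edgeR or DESeq2, and Ighv10-1 alone had an unadjusted edgeR p under 0.05. Without mock 2 Ighv10-1 was called lower (log2 fold change -0.41, edgeR adjusted p = 0.026), and with library size alone as the scaling Ighv3-6 was called higher (log2 fold change 0.30, edgeR adjusted p = 0.042). Their 95% intervals of the log2 fold change all lay between -0.59 and 0.47. A change of 1.5-fold or more, in either direction, was thus outside the interval of 9 of them and at its edge for Ighv9-3 (log2 fold change -0.20, interval -0.59 to 0.18).

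**Figure D1:**
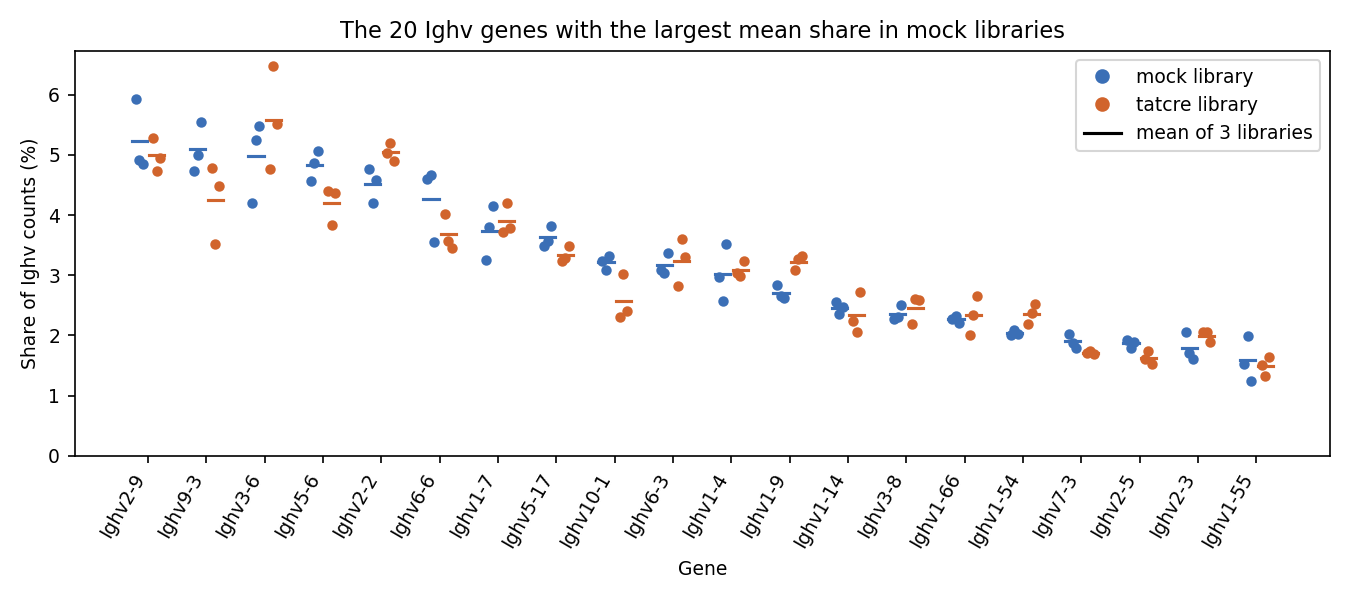
Share of all Ighv counts (%, vertical axis) for the 20 Ighv genes with the largest mock share (horizontal axis), with 1 point per library and a line at the mean of 3 libraries. Mock (blue) and tatcre (orange) overlap for 13 of the 20 genes; Ighv2-2, Ighv1-9 and Ighv1-54 lie higher and Ighv5-6, Ighv10-1, Ighv7-3 and Ighv2-5 lie lower in all tatcre libraries.

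To ask whether loss of YY1 changed the RNA of single V genes, all 15546 genes that passed the filter on low counts were tested together, 96 Ighv genes among them. In tatcre cells 1 Ighv gene fell, Ighv14-3, and 2 rose, Ighv1-18 and Ighv1-22. Over all genes tested 16.3% fell and 10.8% rose. The median log2 fold change was 0.09 over the Ighv genes and 0.02 over all genes. At an unadjusted p under 0.05 there were 3 Ighv genes lower and 5 higher. Without mock 2 or tatcre 1 no Ighv gene was called higher, and without mock 1 or any 1 of the tatcre libraries none was called lower. The 1 gene called lower without mock 2 was Ighv10-1, not Ighv14-3. The 22 members that did not pass the filter had 12 to 58 counts in all.

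Calls are rarer at low levels, and the Ighv genes had mean levels of 0.382 to 36.1 CPM with a median of 2.81 CPM. Of 21 Ighv genes at 10 CPM and above none was called by edgeR or DESeq2 and 2 had an unadjusted edgeR p under 0.05, where 23.0% of all genes at that level fell and 12.8% rose. Each of these 21 had a 95% interval within 2-fold in either direction, and 19 had one within 1.5-fold. Between 1 and 10 CPM lay 58 Ighv genes, including the 3 called; at that level 11.1% of all genes fell and 10.8% rose. In this range 33 had an interval within 2-fold, and under 1 CPM none of 17 did. Of all genes under 1 CPM 2.38% fell and 3.96% rose.

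Ighv1-18 (ENSMUSG00000076695, chromosome 12, 114682632 to 114682925) had 242, 147 and 160 counts in mock and 351, 231 and 264 counts in tatcre libraries. Its share of Ighv counts was 1.25, 0.900 and 0.968% in mock and 1.88, 1.59 and 1.47% in tatcre libraries, so every tatcre library lay above every mock library. It rose 1.62-fold (log2 fold change 0.69, SE 0.21, edgeR adjusted p = 0.030). This call was lost without mock 2, mock 3 or tatcre 1 (log2 fold change 0.52, 0.65 and 0.49).

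Ighv1-22 (ENSMUSG00000094561, chromosome 12, 114746273 to 114746566) belongs to the same family and lies farther from the D segments. It had 35, 29 and 52 counts in mock and 95, 63 and 68 counts in tatcre libraries, again without overlap. Its rise was 2.01-fold (log2 fold change 1.01, SE 0.34, edgeR adjusted p = 0.049). The call was lost without mock 1, mock 2, tatcre 1 or tatcre 3 (log2 fold change 0.91, 0.80, 0.79 and 1.08), with a block on the replicate number (1.04) and when libraries were scaled to their summed Ighv counts (0.97). Of the tested genes lying between them, Ighv1-19 had 54, 34 and 30 counts in mock and 50, 51 and 59 in tatcre libraries, and Ighv1-20 had 29, 19 and 38 against 43, 23 and 21. Neither was called (edgeR adjusted p = 0.27 for Ighv1-19). The Ighv1 genes resemble each other closely, so a read of one can fit another.

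Ighv14-3 (ENSMUSG00000095642, chromosome 12, 114059845 to 114060273), of the small Ighv14 family, had 336, 317 and 118 counts in mock and 137, 123 and 124 counts in tatcre libraries. Its share of Ighv counts was 1.74, 1.94 and 0.714% in mock and 0.735, 0.849 and 0.689% in tatcre libraries. Mock 1 and mock 2 were thus high, while mock 3 lay among the tatcre libraries. Ighv14-3 fell 1.88-fold (log2 fold change -0.91, SE 0.28, edgeR adjusted p = 0.035), and the call was lost without any library but mock 3 (log2 fold change -0.69 to -0.97). It was also lost with upper-quartile factors and with library size alone (-0.84 and -0.81). Without mock 3 it was -1.23 with edgeR adjusted p = 0.00028. The other Ighv14 genes held together 1.04, 1.54 and 1.17% in mock and 1.08, 1.10 and 0.900% in tatcre libraries, which overlap.

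When libraries were scaled to their summed Ighv counts, so that a call is a change of usage within the Ighv genes, Ighv14-3 fell and Ighv1-18 rose (edgeR adjusted p = 0.0028 and 0.013). On that scale 10.9% of all genes fell and 6.19% rose. Shares did not overlap between the groups for 14 of the 96 tested genes, 7 lower and 7 higher in tatcre cells. The shares over all genes were 19.7% lower and 13.8% higher.

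A few low genes had fold changes of 2 or more without a call, and these rested on few counts or 1 library. Ighv6-4 had 13, 6 and 2 counts in mock and 30, 17 and 13 in tatcre libraries (log2 fold change 1.59, SE 0.67, edgeR adjusted p = 0.10). Ighv3-1 had 9, 53 and 12 counts in mock and 10, 6 and 6 in tatcre libraries (log2 fold change -1.63, SE 0.72, edgeR adjusted p = 0.12), mock 2 alone being high. Ighv1-11 had 26, 15 and 18 counts against 8, 4 and 15 (log2 fold change -1.06, edgeR adjusted p = 0.21). These 3 genes were chosen after their values were seen.

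By family, usage kept the same order in both groups at the top, with Ighv1 first and Ighv2, Ighv5, Ighv3 and Ighv6 after it. Ighv1, with 60 members, held 34.3, 35.0 and 35.1% of Ighv counts in mock and 37.4, 37.1 and 38.2% in tatcre libraries, a mean of 34.8 ± 0.406% against 37.5 ± 0.552%. Every tatcre library lay above every mock library in this share, which is a part of all Ighv counts and not a level of RNA. The difference did not rest on the 2 called genes: the other 58 Ighv1 members held 32.9, 33.9 and 33.8% in mock and 35.0, 35.1 and 36.3% in tatcre libraries. Of 46 tested Ighv1 genes 32 had a log2 fold change above 0 and 14 below, with a median of 0.10. Over all 96 tested Ighv genes 59 were above 0 and 37 below, with a median of 0.09, so the Ighv1 median was close to that of all. These fold changes are on the library-scaled level and not of shares.

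Ighv5 and Ighv10 were lower in all tatcre libraries. Ighv5, with 9 members, held 12.6, 13.3 and 13.3% in mock and 12.4, 11.6 and 11.9% in tatcre libraries. Ighv10, which has 2 members, held 5.02, 4.27 and 4.53% in mock and 3.53, 4.09 and 3.26% in tatcre libraries. The gap between the nearest libraries of the groups was small for both families, from 12.4 to 12.6% for Ighv5 and from 4.09 to 4.27% for Ighv10.

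The other 12 of the 15 families overlapped between the groups. Over all single genes tested, counts divided by summed Ighv counts did not overlap for 19.7% in the lower and 13.8% in the higher direction. The families without overlap, 2 lower and 1 higher of 15, are thus not above that share. Ighv2 held 17.8, 15.2 and 16.2% in mock and 17.5, 16.4 and 16.7% in tatcre libraries. Ighv3 stood at 8.10 ± 0.797% and 8.65 ± 1.02%, Ighv6 at 7.69 ± 0.377% and 7.39 ± 0.205%, and Ighv9 at 5.93 ± 0.499% and 5.13 ± 0.732% in mock and tatcre cells. Ighv14 ranged more widely in mock (2.77, 3.48 and 1.88%) than in tatcre libraries (1.81, 1.95 and 1.59%), which follows Ighv14-3. Family shares are given as a description with no test; an exact two-sided permutation test of 3 libraries against 3 could not give a p below 0.1.

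**Figure D2:**
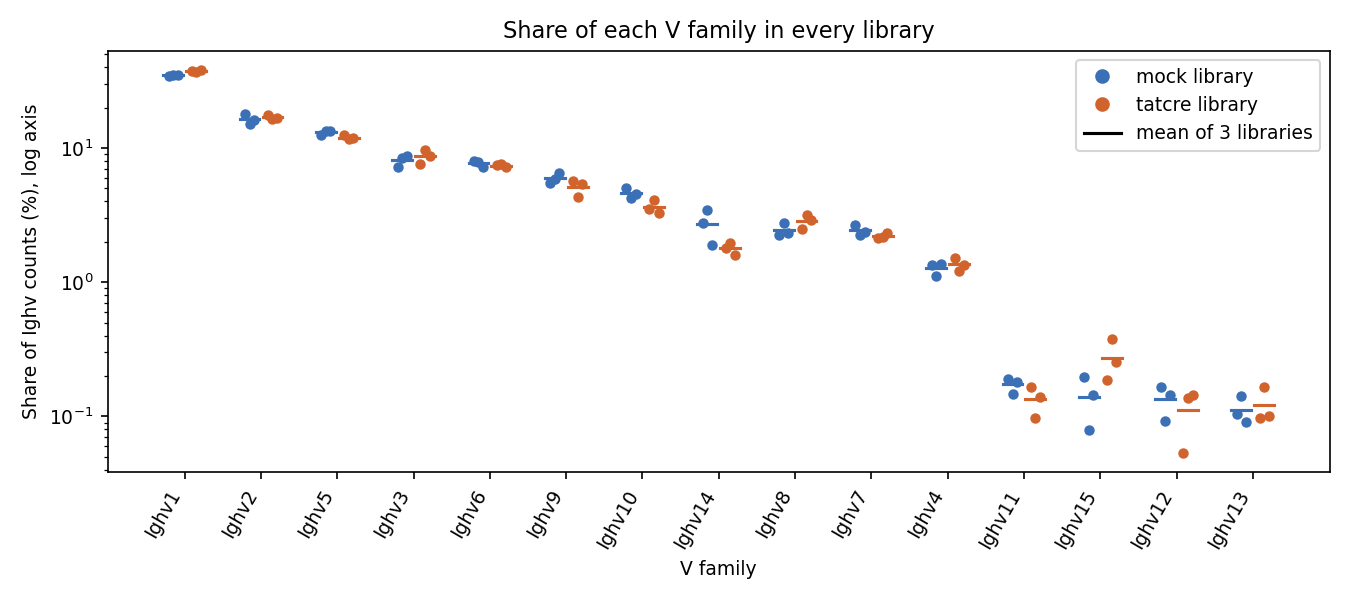
Share of all Ighv counts (%, log axis) held by each of the 15 V families (horizontal axis), with 1 point per library and a line at the group mean. Ighv1 lies higher and Ighv5 and Ighv10 lie lower in all tatcre libraries (orange) than in all mock libraries (blue), by small amounts; the families under 1% rest on few counts and scatter widely.

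Some families rested on a single gene and others were even within themselves. Ighv9-3 gave 85.9% of the Ighv9 counts in mock cells, Ighv7-3 gave 77.8% of Ighv7 and Ighv3-6 gave 61.4% of Ighv3. In the Ighv1 family the most used gene, Ighv1-7, gave 10.7%. The members RefSeq lists as pseudogenes, 16 of the 118, held 5.28 ± 0.285% of Ighv counts in mock and 5.29 ± 0.152% in tatcre cells. Ighv7-3 (1.90 ± 0.117% in mock) and Ighv4-2 (1.21 ± 0.154%) gave most of it. Of the 67 Ighv IDs under the threshold 49 had no count in any library, 40 of them pseudogenes and 9 functional V segments.

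Ighv11-2 and Ighv12-3 are V genes known from B-1 cells, a lineage that makes natural antibodies. Ighv11-2 had 35, 24 and 24 counts in mock and 29, 10 and 24 in tatcre libraries (log2 fold change -0.33, 95% interval -1.41 to 0.75, edgeR adjusted p = 0.65). Ighv12-3 had at most 5 counts in a library and was not tested. Both were thus a small part of Ighv RNA, at most 0.181% and 0.026% of it in any library. Of 5 B-1 cell markers, Spn and Zbtb32 fell and Cd5, Bhlhe41 and Cd9 were not called. The summed level of all 5 was 367 to 377 CPM in mock and 319 to 342 CPM in tatcre libraries. Most of it was Zbtb32 (217 ± 13.4 and 183 ± 10.1 CPM). Cd5 lay at 0.426 to 0.869 CPM in mock and 0.209 to 0.656 CPM in tatcre libraries.

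Along the locus, the summed share of the far-end families was higher in all tatcre libraries, with Ighv1 giving most of the difference, and the sum of the families between was lower. Among the single families Ighv8 at the far end overlapped between the groups, as did all the families between except Ighv10. The 67 distal members (Ighv1 and Ighv8) held 36.6, 37.7 and 37.4% of Ighv counts in mock and 39.9, 40.2 and 41.0% in tatcre libraries, with no overlap. The 17 proximal members (Ighv2 and Ighv5) held 30.3, 28.5 and 29.5% in mock and 29.9, 28.0 and 28.5% in tatcre libraries, which overlap. The 34 members of all other families held 33.1, 33.8 and 33.1% in mock and 30.2, 31.8 and 30.4% in tatcre libraries, all tatcre values being lower. The stretches are groups of families and overlap in position. Distal members start between 114462290 and 116009659 on chromosome 12, and members of the other families between 113896408 and 114564578. The mean difference was 3.12 percentage points for the distal genes, against SDs of 0.587 in mock and 0.604 in tatcre cells. Shares in a library are parts of 1 whole, so a higher share of one stretch goes with a lower share elsewhere. They do not show whether the RNA level of the distal genes rose.

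Single genes in these stretches moved little. The median log2 fold change was 0.15 over 52 tested distal, -0.13 over 27 other and 0.06 over 17 proximal genes. All 6 tested Ighv8 genes had a log2 fold change above 0 and all 4 tested Ighv14 genes one below 0, though Ighv14-3 alone of them was called. The member nearest the D segments, the pseudogene Ighv5-1 (chromosome 12, 113572929 to 113573222), had 31, 25 and 38 counts in mock and 44, 42 and 37 in tatcre libraries. The farthest, Ighv1-86 (chromosome 12, 116009659 to 116009954), had 23, 17 and 32 counts in mock and 11, 20 and 27 in tatcre libraries. Neither was called (edgeR adjusted p = 0.39 and 0.73). Of 5 marginal zone B cell markers Cr2, Dtx1 and Mzb1 fell and Cd1d1 and Cd9 were not called. The summed level of all 5 was 198 to 229 CPM in mock and 143 to 163 CPM in tatcre libraries. Most of it was Mzb1 (155 ± 11.6 and 107 ± 12.7 CPM), which is also among the plasma cell markers. The part of these markers in the difference along the locus was not tested.

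**Figure D3:**
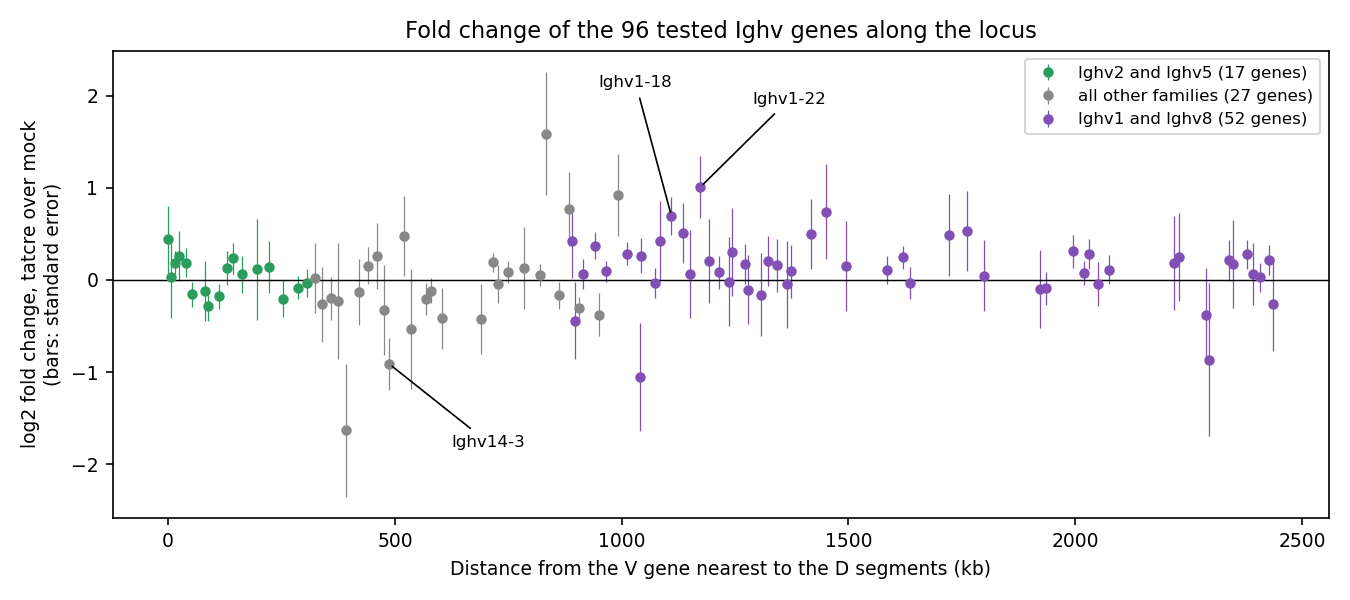
The log2 fold change of tatcre over mock (vertical axis, bars are standard errors) of the 96 tested Ighv genes against their distance in kb from the V gene nearest the D segments (horizontal axis). Most genes lie near 0 over the whole locus; the 3 called genes, Ighv14-3, Ighv1-18 and Ighv1-22, are named.

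The evenness of usage differed little between the groups. Shannon evenness, which is 1 where all members are used equally, was 0.831, 0.832 and 0.826 in mock and 0.838, 0.834 and 0.832 in tatcre libraries. As an effective number of equally used genes this was 52.6, 53.0 and 51.4 in mock and 54.4, 53.4 and 53.1 in tatcre libraries. The groups did not overlap, but mock 2 and tatcre 3 lay closer to each other than the libraries within either group. The 10 most used genes of each library held 41.8, 42.4 and 43.9% in mock and 41.3, 41.7 and 41.6% in tatcre libraries. Inverse Simpson numbers, which weigh the most used genes more, overlapped (37.2 ± 0.943 and 38.3 ± 0.749). In every library 13 or 14 genes made up 50% of Ighv counts.

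**Figure D4:**
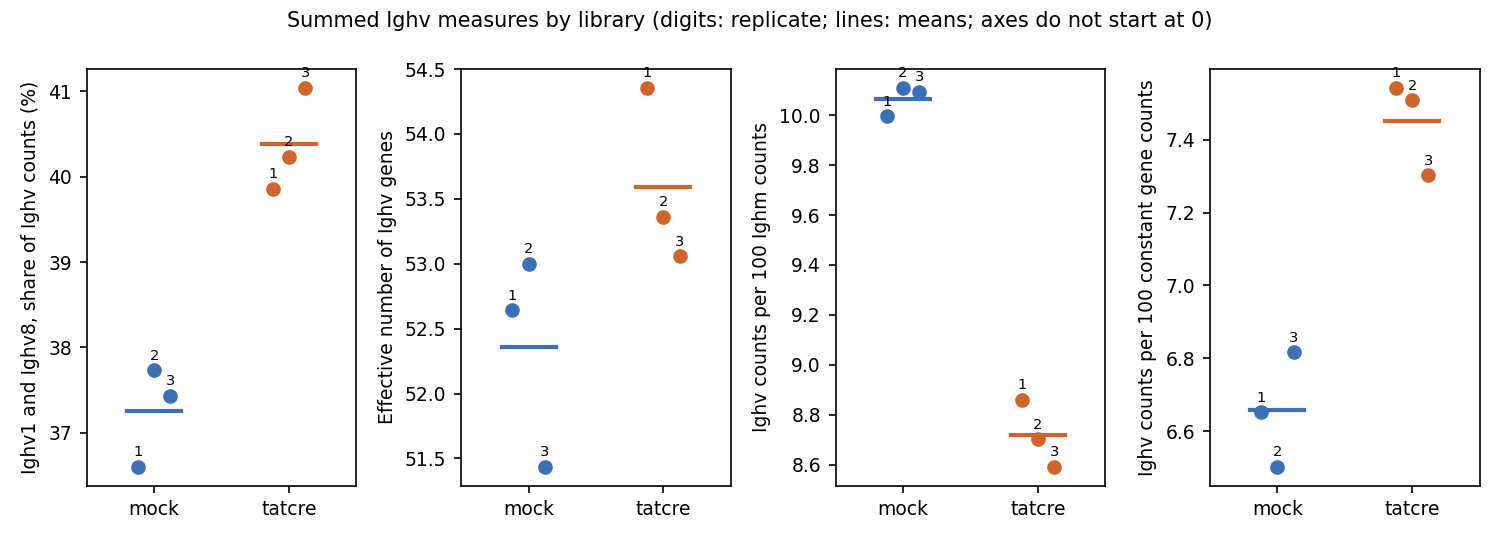
From left to right, the share of Ighv1 and Ighv8 in Ighv counts (%), the effective number of Ighv genes, Ighv counts per 100 Ighm counts and Ighv counts per 100 heavy chain constant gene counts, with 1 point per library (digits give the replicate), a line at the mean and axes that do not start at 0. Mock and tatcre libraries do not overlap in any panel; the 2 ratios move in opposite directions.

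Whole usage profiles were nearly as different within a group as between groups. The share of Ighv counts that would have to be moved from gene to gene to turn one library into another was 7.06 to 8.63% for the 3 pairs of mock libraries and 6.99 to 8.70% for the 3 pairs of tatcre libraries. For the 9 pairs of a mock with a tatcre library it was 7.59 to 10.6%, with a mean of 8.93% against 7.70% and 7.68% within the groups. Libraries of equal number differed by 7.59, 9.86 and 7.62%, and no mock and tatcre pair of unequal number was below 8.58%. Chi-square per degree of freedom over the members was 3.18 to 5.72 over all 15 pairs, a check for a library deposited more than once, of which there was no sign. Pearson's r of shares across the 118 genes was 0.958 to 0.989, a description over genes that share libraries and families. The most variable genes with a mean share of at least 0.5% were Ighv14-3, Ighv1-18, Ighv10-3, Ighv14-1 and Ighv8-11, whose highest share was 2.82, 2.09, 2.07, 2.03 and 1.99 times the lowest. The last 3 of them were not called. In mock 1 Ighv10-3 was high (1.79%, against 0.861 to 1.23% elsewhere), in mock 2 Ighv14-1 (0.924%, against 0.455 to 0.641%).

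**Figure D5:**
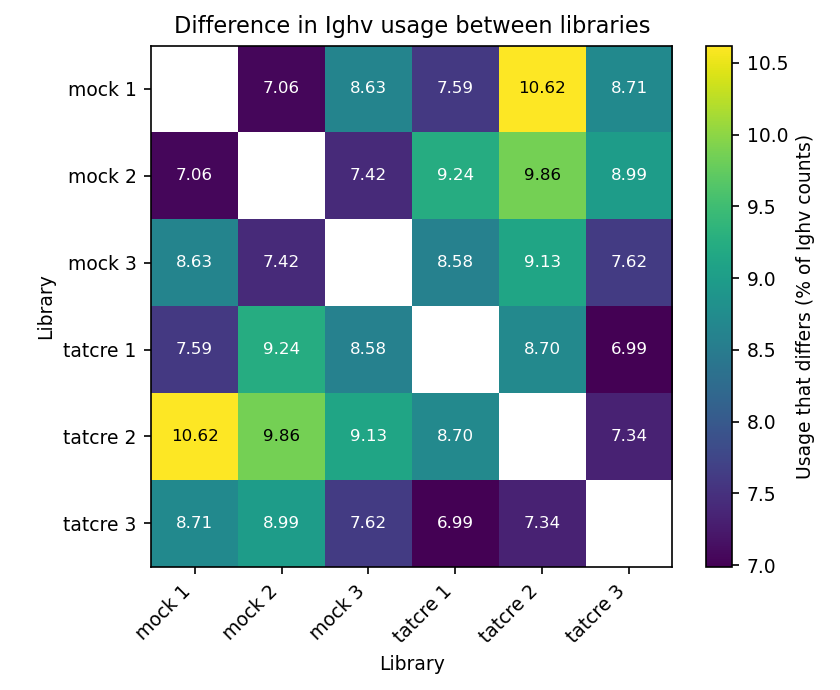
Percent of Ighv counts by which usage differs between each pair of libraries (colour and printed value; both axes list the 6 libraries). Values within mock and within tatcre libraries (6.99 to 8.70%) overlap with those between the groups (7.59 to 10.6%), and the highest involve tatcre 2.

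Other genes of heavy chain expression and assembly were read from the same test. Of 11 transcription factors that act on V promoters or heavy chain enhancers 5 fell and 6 were not called, with a median log2 fold change of -0.26. All but Cebpb lay above 10 CPM, where 23.0% of all genes fell and 12.8% rose. Pou2af1, the coactivator of the octamer-binding proteins that V promoters recruit, fell from 1291 ± 23.9 to 1086 ± 58.2 CPM, Pax5 from 1108 ± 92.8 to 874 ± 6.32 CPM and Tcf4, an E protein, from 233 ± 24.4 to 158 ± 4.15 CPM. Ikzf1 and Irf4 fell as well. The octamer-binding factors themselves, Pou2f1 (80.9 and 77.0 CPM in mock and tatcre cells) and Pou2f2 (340 and 329 CPM), were not called.

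The recombinase genes Rag1 and Rag2, which cut V genes for joining, had no count in any library. A count of 0 allows up to 0.111 to 0.128 CPM, taking 3 counts as the limit. Of the 9 tested genes among 12 of V(D)J recombination, Prkdc (73.4 ± 2.81 to 53.2 ± 4.63 CPM) and Dclre1c, the nuclease Artemis that opens hairpins (31.3 ± 2.11 to 24.3 ± 1.37 CPM), fell and 7 were not called, 8 of the 9 lying above 10 CPM. Among 8 genes of locus architecture, the cohesin subunits Rad21 (693 ± 89.8 to 1158 ± 195 CPM) and Smc3 and the cohesin release factor Wapl rose, Yy1 fell, and Ctcf, Smc1a, Nipbl and Ezh2 were not called. All 8 had mean levels above 10 CPM, where 23.0% of all genes fell and 12.8% rose. Over all genes tested 16.3% fell and 10.8% rose. The fall of Yy1 is that of the deleted gene itself. Of the 4 joining segments Ighj2 (9.83 ± 3.07 and 12.6 ± 1.93 CPM) and Ighj4 were tested and not called, and the 20 D segments together had 11 to 23 counts in a library.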

How the data were processed

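RNA was measured in 3 mock and 3 tatcre libraries. The authors' deposited files hold raw counts per Ensembl gene ID. Per the labels' protocols a stranded RNA kit was used. The submitters' processing notes name HTSeq, TopHat2, Trimmomatic and SAMtools, and mm10 as the build. Strand setting, annotation and the treatment of reads fitting several V genes or crossing a V-D-J junction are not given in these sources. Near-identical V genes can therefore be undercounted, and shares describe counted RNA, not cells. Symbols matched 48349 of 48795 IDs; V gene type and position are RefSeq's on GRCm38. YY1 peak lists were not used here, because some positions lie beyond the final gene of their chromosome in GRCm38.

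Genes were filtered with filterByExpr (minimum count 10, minimum total 15), scaled by TMM and compared by the quasi-likelihood test of edgeR (version 4.0.16, in R 4.3.3), Benjamini-Hochberg adjusted over 15546 genes, threshold 0.05. The test was checked on simulated data. CPM use TMM-scaled totals. The common biological coefficient of variation was 0.129. Shares divide a gene's counts by all member counts of the library (14495 to 19322). Named genes were the 10 most used in mock, up to 5 called each way, the 5 most variable, Ighv11-2 and Ighv12-3, the 2 ends of the locus and those at the count threshold. Members and lists were chosen with earlier results of these data known. One gene of the B cell marker list is not reported here. Alternatives were other scalings, no filter, DESeq2 1.42.0, a replicate block, a minimum of 100 counts and leaving out each library, the most used gene or pseudogenes.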

Additional observations from a re-analysis of the deposited data

How the results depend on the processing

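Ighv calls are few and unstable. The count of Ighv genes falling was 0 with upper-quartile factors and with library size alone, where 1 Ighv gene was lower at an unadjusted p under 0.05 in each, and 0 to 1 when a library was left out (Ighv10-1 in place of Ighv14-3 without mock 2, and 0 by edgeR without mock 1, tatcre 1, tatcre 2 or tatcre 3, with 2, 6, 2 and 2 genes at an unadjusted p under 0.05), against 1 as reported. The count of those rising was 5 with library size alone and 3 with upper-quartile factors, against 2 as reported. It was 1 with the replicate block and 1 with libraries scaled to summed Ighv counts. When a library was left out it was 0 to 3 (0 without mock 2 or tatcre 1, each with 1 at an unadjusted edgeR p under 0.05). DESeq2 called Ighv14-3, Ighv1-18 and Ighv1-22 in the same directions. Of 96 tested genes 59 had a log2 fold change above 0 as reported, 68 with library size alone and 49 of 99 without mock 2. Deviations of same-numbered libraries from their group means had correlations of 0.06, -0.03 and 0.23 over all tested genes. Pairs of unequal number ran from -0.33 to 0.25. Over the tested Ighv genes the correlations were -0.04, 0.12 and 0.08 for equal numbers and -0.14 to 0.08 for unequal numbers. The replicate block lost Ighv1-22 (log2 fold change 1.04). Among named genes that were not called, the sign of the log2 fold change turned for Ighv2-9 (0.033 with upper-quartile factors, 0.069 with library size alone, -0.161 to 0.127 without 1 library), Ighv5-17 (0.0201 with library size alone, -0.178 to 0.0187 without 1 library), Ighv6-3 (-0.0548 to 0.115 without 1 library) and Ighv1-86 (-0.572 to 0.061 without 1 library). Under every alternative run that kept all libraries, the summed measures moved by less than 1 SD between replicates, pooled over both groups. These were the family shares (Ighv1, 2, 3, 5, 6 and 9), shares along the locus, evenness and the total Ighv share. Leaving out a library cannot move a difference by that much, whatever the values, so those runs are given as ranges only. Leaving out a library gave a difference of 2.42 to 2.95 percentage points for Ighv1, -0.109 to 1.19 for Ighv2 (below 0 without mock 2, against 0.49 as reported), 0.051 to 1.07 for Ighv3, -1.35 to -0.916 for Ighv5, -0.516 to -0.179 for Ighv6, -1.09 to -0.393 for Ighv9, 2.79 to 3.38 for the distal and -1.16 to -0.158 for the proximal families, 0.00278 to 0.0108 for the total Ighv share and 0.00303 to 0.00617 for evenness. The octamer motif could not be looked for, since the promoter table used here lists no Ighv gene. Some 42 of the 96 tested genes lack the depth for a 95% interval within 2-fold.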
